A study of Mus musculus with 6 samples.

Results

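Amino acid transporters of the solute carrier families Slc1, Slc3, Slc7, Slc36, Slc38 and Slc43 were taken as every gene whose symbol is one of these prefixes followed by a and a number, which gave 42 of the 20325 genes in the files. Of these, 23 had enough counts to be tested, 11 had a count in at least 1 library but too few to test, and 8 had no count in any library. RNA was sequenced from mouse pre-iPSCs, which are partially reprogrammed cells, of the lines pre3 and pre2-2. In each line 1 library came from cells transfected with an siRNA against the 5-methylcytosine dioxygenase Tet1 (siTet1), 1 from cells given a control siRNA and 1 from untransfected cells. The 6 libraries thus gave 2 per treatment and 3 per line. All cells were at passage 10, had a mixed 129SVJ, C57B6 and CBA background, carried the OG2 transgene, which puts GFP under the Pou5f1 promoter, and were kept in vitamin C. The sample labels give 36 h of vitamin C and 48 h from transfection to RNA; the series text instead gives vitamin C at 50 µg/ml from 16 h, in mES medium with LIF, and RNA 32 h after that. A label field of the siTet1 samples reads Tet siRNA, while their titles and descriptions name Tet1. The labels name the cells fibroblasts and the series text names them pre-iPSCs; they do not say whether libraries of a line came from separate cultures, so p-values measure only the spread between these libraries.

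These carriers move amino acids across the plasma membrane and the lysosomal membrane. Many Slc7 proteins are light chains that reach the cell surface only when bound to the heavy chain encoded by Slc3a2, and act as exchangers, so that a cell takes up leucine or cystine by giving out glutamine or glutamate. The sodium-coupled Slc38 and Slc1 carriers build up the glutamine and small neutral amino acids that such exchangers spend. Several of the genes, among them Slc3a2, Slc7a5, Slc7a11, Slc1a4 and Slc38a2, are known targets of Atf4, the transcription factor of the amino acid response, and mouse embryonic stem cells are known for their dependence on threonine.

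The libraries held 1868640 to 2582800 expected counts, and 3 counts, taken as the detection floor, were 1.16 to 1.59 CPM (counts scaled to a common library total). Floors cover counting error only. Tet1 was at 158 CPM (pre3) and 153 CPM (pre2-2) with siTet1, against 249 and 245 CPM with control siRNA and 204 and 249 CPM untransfected, and fell by 0.67 on the log2 scale between siTet1 and control siRNA (SE 0.13, edgeR adjusted p = 0.00432). As a check of the label, the pluripotency markers Dppa3 (0 counts in every library), Esrrb (0 to 3), Lin28a (0 to 2), Tcl1 (0 to 5) and Nanog (0 to 7) were at or near 0. Others of the list were expressed. Pou5f1 had 2059 to 12904 counts, Tdgf1 911 to 1767, Sox2 716 to 1276, Fgf4 117 to 328 and Sall4 66 to 204. In all, 9 of 16 such markers were high enough to be tested. Of 18 fibroblast and matrix markers, 17 could be tested and their summed level was 2710 to 7870 TPM, so fibroblast genes were expressed too.

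The transporters together made up 2043 to 2528 TPM (a level per transcript length, for comparing genes), or 0.305 to 0.356% of the counts of a library. The 5 highest members took 78.9 to 81% of their summed TPM. They were the glutamine carrier Slc38a5, the arginine and lysine carrier Slc7a3, the heavy chain Slc3a2, its leucine-transporting light chain Slc7a5 and the small neutral amino acid carrier Slc38a2. Acidic amino acid carriers were the class at the other end, with no member high enough to test.

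**Figure D1:**
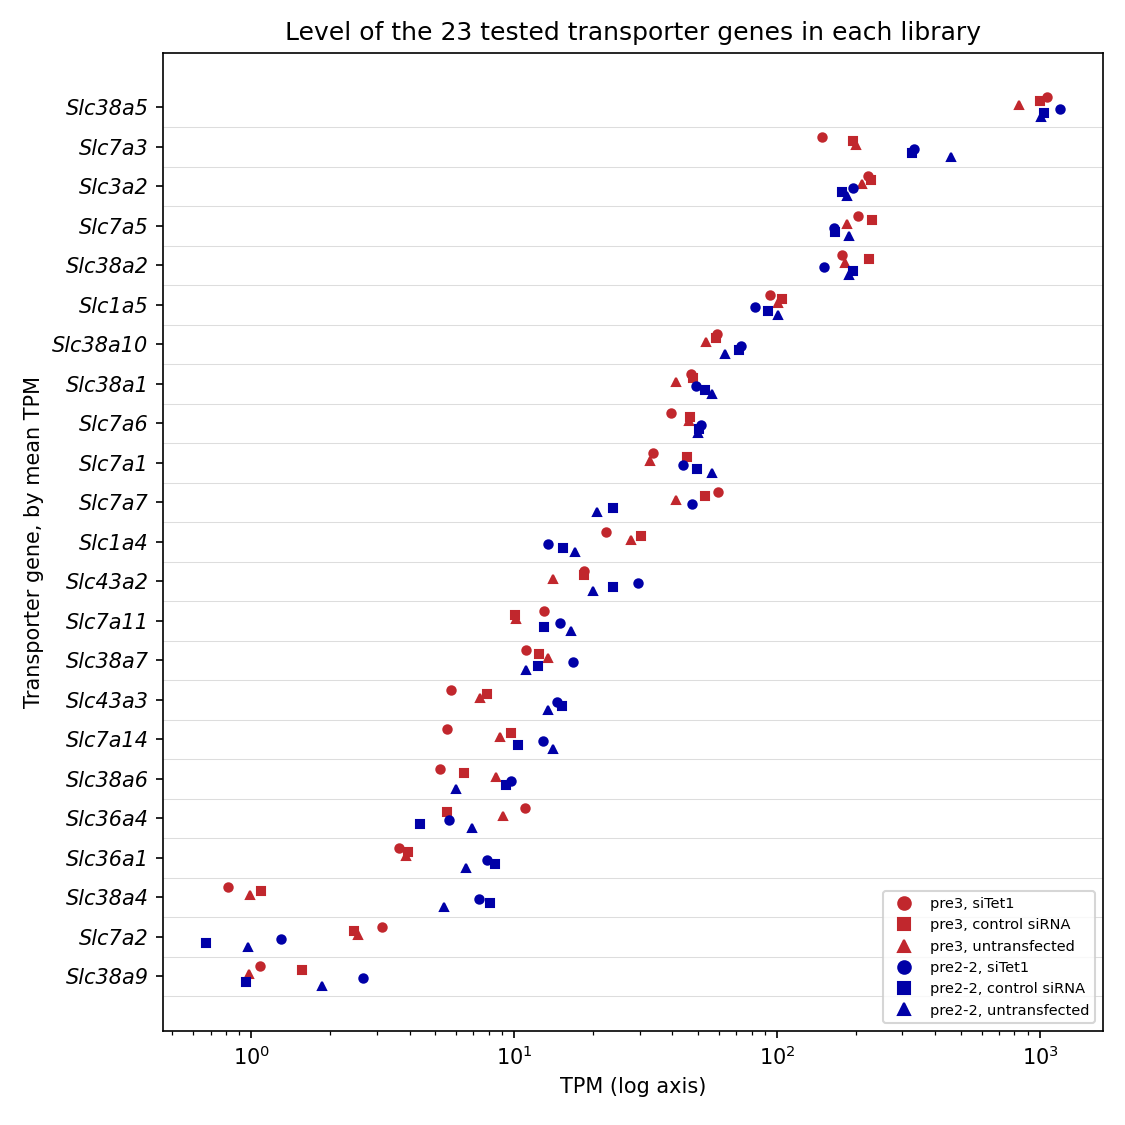
Level of each tested transporter gene (rows, ordered by mean TPM) in TPM on a log axis, with 1 point per library, red for pre3 and blue for pre2-2, and the shape giving the treatment. Slc38a5 lies at 835 to 1190 TPM and Slc38a9 at 0.954 to 2.67 TPM. Slc38a4, Slc7a3 and Slc7a2 are among the genes that show the colours apart.

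Slc38a5, a sodium-coupled carrier of system N that moves glutamine, asparagine, histidine and serine, was the most abundant member in every library. It stood at 1060 and 1190 TPM with siTet1 (pre3 and pre2-2), 997 and 1040 TPM with control siRNA and 835 and 1010 TPM in untransfected cells. Its mean of 1020 TPM ranked 131 among all 20325 genes, and it held 40.4 to 47.2% of the transporters' summed TPM. The other system N gene, Slc38a3, had 0 to 2 counts per library. The stretch before the Slc38a5 start site is shown because this is the highest member. It holds the E-box CACGTG (capitals), a palindrome bound by Myc and related factors. This E-box stands in 6.02% of all 32851 promoter windows of the 250 bases before a start site. Among the members it stands in 7 of 42 windows, which belong to 7 of the 31 members with a window. The RefSeq sequence, GRCm38.p6, chrX:8271331-8271376, plus strand, reads 5′ to 3′:
Slc38a5: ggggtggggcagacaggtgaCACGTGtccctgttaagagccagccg

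Among the heterodimeric carriers, the heavy chain Slc3a2 averaged 203 TPM over the 6 libraries (176 to 228). The light chains known to pair with it (Slc7a5, Slc7a6, Slc7a7, Slc7a8, Slc7a10 and Slc7a11) summed to 255 to 340 TPM, 1.34 to 1.5 times the heavy chain in every library. Slc7a5 alone made up 58.8 to 67.9% of that sum. Next came Slc7a6 and Slc7a7, which exchange cationic for neutral amino acids, at means of 47.4 and 40.9 TPM. Slc7a11, which imports cystine for glutathione synthesis, was at 13 TPM, Slc7a8 at 0.241 to 2.11 TPM and Slc7a10 had no counts. The alternative heavy chain Slc3a1, of kidney and gut, had a count in 1 library only, and its light chain Slc7a9 had none, which allows up to 3 counts.

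Of the cationic carriers, Slc7a3 outweighed Slc7a1, the widespread arginine carrier of most tissues. Slc7a3 averaged 276 TPM, Slc7a1 43.7 TPM and Slc7a2 1.85 TPM, and Slc7a3 held 80.1 to 88.8% of the class in each library. Among neutral exchangers, Slc1a5, the glutamine exchanger often called ASCT2, was at 95.8 TPM (82.8 to 104) and Slc1a4, its serine and alanine relative, at 21 TPM. Of the system A carriers, Slc38a2 was at 185 TPM and Slc38a1 at 49.2 TPM. Among carriers of lysosomes and other inner membranes, Slc38a10 was at 63.2 TPM, the lysosomal glutamine exporter Slc38a7 at 12.8 TPM, the lysosomal proton-coupled carrier Slc36a1 at 5.73 TPM and Slc38a9, the lysosomal arginine sensor, at 1.52 TPM.

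The highest member of each remaining class is given per library for siTet1, control siRNA and untransfected cells in that order. Slc1a5 was at 94.1, 104 and 101 TPM in pre3 and 82.8, 92.6 and 101 TPM in pre2-2. Slc38a10 was at 59.3, 58.5 and 53.7 TPM in pre3 and 72.8, 71.7 and 63.3 TPM in pre2-2, and Slc7a6 at 39.5, 46.6 and 46.3 TPM in pre3 and 51.6, 50.5 and 49.9 TPM in pre2-2. These 3 genes differed little between libraries, though Slc38a10 and Slc7a6 lay lower in TPM in every pre3 library than in any pre2-2 library. Slc7a11 was at 13, 10.1 and 10.2 TPM in pre3 and 15, 13 and 16.4 TPM in pre2-2. Slc36a4, a carrier of proline and tryptophan, was at 11, 5.54 and 9.06 TPM in pre3 and 5.64, 4.4 and 6.93 TPM in pre2-2, from 8 to 20 counts per library, and its lines overlapped. Slc1a7, the highest acidic carrier, was at 0.988, 0.828 and 2.23 TPM in pre3 and 0.702, 0.424 and 0.49 TPM in pre2-2, with 1.2 to 6.87 counts per library. The value of Slc38a6, at a mean of 7.53 TPM, is uncertain, since 41.3% of its 50-base words also occur in transcripts of other genes.

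The 19 members not tested reached at most 2.27 TPM. They included all 5 carriers of glutamate and aspartate, Slc1a1, Slc1a2, Slc1a3, Slc1a6 and Slc1a7, which clear glutamate in brain and retina. Their summed level was 1.24 to 3.63 TPM. The 8 with no count were Slc36a2, Slc36a3, Slc38a8, Slc38a11, Slc7a9, Slc7a10, Slc7a12 and Slc7a13. The large neutral carriers Slc43a1 and Slc7a8, the Slc7a4 gene and Slc1a7 had a count in all 6 libraries, at no more than 4.03 CPM. Slc38a3, Slc3a1 and Slc7a15 were also too low to test.

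The levels of 12 of the 23 tested members stayed within 2-fold over the 6 libraries. Slc1a5 varied least, with a coefficient of variation of 7.99%, and Slc38a4 most, with 85.8%. Slc3a2, Slc38a1, Slc38a5 and Slc7a6 were also at or under 11.3%.

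In pre3 against pre2-2, 12 of the 23 tested transporters differed, 5 higher and 7 lower, with edgeR's quasi-likelihood test and an adjusted p under 0.05. Of the arginine and lysine carriers, Slc7a3 was 0.516-fold and Slc7a1 0.782-fold in pre3, while Slc7a2 was 2.85-fold. The exchanger Slc7a7 was 1.81-fold, the serine and alanine carrier Slc1a4 1.84-fold, and the heavy chain Slc3a2 and its partner Slc7a5 1.26- and 1.25-fold. The system A carrier Slc38a4 was 0.152-fold. Over all 11048 genes tested, 30.2% were called, 14.4% higher and 15.8% lower in pre3. The members' median log2 fold change was -0.14 and that of all genes 0. Without the siTet1 library of pre3 or of pre2-2, 7 members were called in each case, where 21.5 and 21.6% of all genes were. With treatment in the model, a treatment left with a lone library adds nothing to the line difference. Leaving out either library of a treatment is therefore nearly the same test of the lines, here and below. The tests are not identical, since the lone library still enters the count filter, the scaling and the spread shared over genes. DESeq2 called 4 members, Slc1a4, Slc38a4, Slc7a3 and Slc7a7. In bulk RNA, fewer cells of a type and less RNA per cell cannot be told apart.

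**Figure D2:**
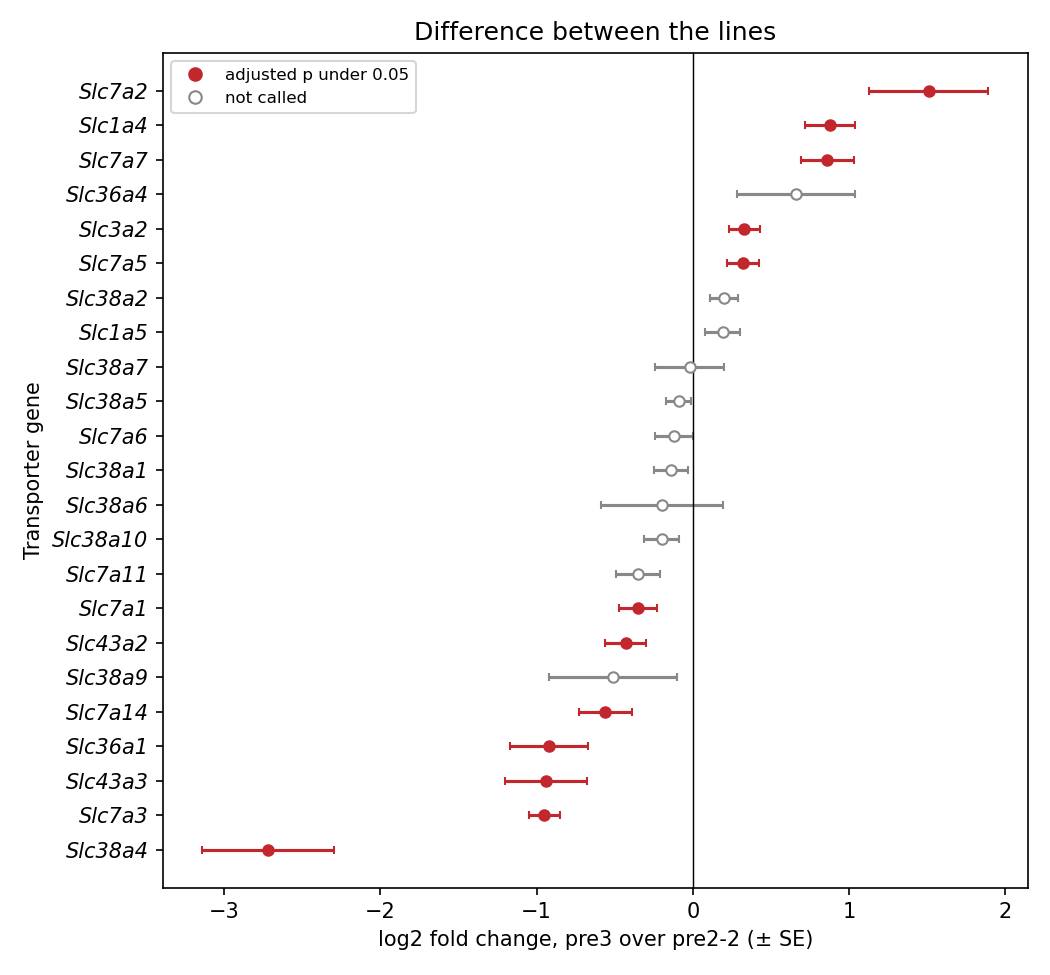
Log2 fold change of each tested transporter in pre3 over pre2-2 (points) with its SE (bars) from edgeR on all 6 libraries, filled red where the adjusted p was under 0.05 and open grey where it was not. Slc38a4 lies lowest at -2.72 and Slc7a2 highest at 1.51, and Slc38a5, the most abundant member, is open at -0.09.

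Slc7a3 showed the smallest adjusted p of the family. It was at 174, 228 and 249 CPM in pre3 (siTet1, control siRNA, untransfected) and at 368, 365 and 533 CPM in pre2-2 in the same order. Every pre3 library lay below every pre2-2 library. The log2 fold change was -0.95 (SE 0.10, edgeR adjusted p = 5.24e-08). In TPM the means were 181 ± 28.6 in pre3 and 371 ± 75.6 in pre2-2 (SD over 3 libraries each). Each SD runs over the treatments of a line, which are not replicates of it.

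Slc38a4, a system A carrier expressed in mouse from the paternal allele, had 1.59, 2.12 and 2.04 CPM in pre3 and 13.5, 15.1 and 10.4 CPM in pre2-2 in that order of treatments. Behind these stand 3 or 4 counts per pre3 library and 27 to 30 per pre2-2 library. The lines did not overlap, and the log2 fold change was -2.72 (SE 0.42, adjusted p = 1.83e-05).

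Slc7a7 was at 67.3, 60 and 49 CPM in pre3 and 50.8, 25.7 and 23.2 CPM in pre2-2. The siTet1 library of pre2-2 reached above the untransfected library of pre3, so the lines overlapped; the log2 fold change was 0.86 (SE 0.17, adjusted p = 0.000306). Of its 50-base words, 5.42% also occur in the antisense neighbour Oxa1l, and the strand setting of the counts is not stated. Slc1a4 was at 43.4, 58.9 and 57.2 CPM in pre3 and 24.7, 28.7 and 32.9 CPM in pre2-2. Its lines did not overlap, with a log2 fold change of 0.88 (SE 0.16, adjusted p = 0.000123).

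The heavy chain and its main light chain moved by similar amounts. Slc3a2 was at 286, 291 and 286 CPM in pre3 and 238, 216 and 232 CPM in pre2-2 (log2 fold change 0.33, SE 0.10, adjusted p = 0.00963). Slc7a5 was at 354, 398 and 341 CPM in pre3 and 272, 276 and 323 CPM in pre2-2 (0.32, SE 0.10, adjusted p = 0.0135). Neither gene's lines overlapped in CPM, while in TPM the untransfected libraries put Slc7a5 at 185 in pre3 and 188 in pre2-2. The call of Slc3a2 ended without the control siRNA library of pre2-2 (0.28) or pre3 (0.30), and that of Slc7a5 without the control siRNA library of pre2-2 (0.22) or pre3 (0.24) or either siTet1 library (0.30 in each case).

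Slc7a2, a cationic carrier of low level, had 12.2, 9.55 and 10.2 CPM in pre3 and 4.66, 2.52 and 3.87 CPM in pre2-2, with a log2 fold change of 1.51 (SE 0.38, adjusted p = 0.00349). Its lines did not overlap, at 18 to 23 counts per pre3 library and 5 to 10 per pre2-2 library. An antisense RNA shares 5.93% of the 50-base words of Slc7a2. Slc7a1 was at 120, 162 and 124 CPM in pre3 and 149, 168 and 200 CPM in pre2-2, overlapping (-0.35, SE 0.12, adjusted p = 0.0231). The Slc7a1 call ended without the siTet1 library of pre2-2 (-0.37) or pre3 (-0.38), and without the untransfected library of either line the value was -0.17.

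Of the remaining members lower in pre3, Slc36a1 exports small amino acids from lysosomes. It was at 9.53, 10.1 and 10.7 CPM in pre3 and 19.6, 21.2 and 17 CPM in pre2-2 (-0.92, SE 0.25, adjusted p = 0.0066). Slc43a3, a family member that transports purine bases rather than amino acids, was at 7.41, 10.1 and 10.2 CPM in pre3 and 17.7, 18.6 and 17 CPM in pre2-2 (-0.94, SE 0.26, adjusted p = 0.00772). Both genes lay at about the same level in the libraries of a line, and the lines did not overlap. The call of Slc36a1 ended without the control siRNA library of pre2-2 (-0.85) or pre3 (-0.83), and that of Slc43a3 without either siTet1 library (-0.81 in both cases).

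Slc43a2, a facilitated carrier of branched-chain amino acids, methionine and phenylalanine, was at 65.7, 64.2 and 51.6 CPM in pre3 and 97, 78.1 and 69.6 CPM in pre2-2 (-0.43, SE 0.13, adjusted p = 0.0127). Slc7a14, a lysosomal relative of the cationic carriers, was at 24.4, 42.4 and 40.9 CPM in pre3 and 53.6, 43.3 and 60.7 CPM in pre2-2 (-0.56, SE 0.17, adjusted p = 0.0161). Neither pair of lines overlapped. The Slc43a2 call ended without either siTet1 library (-0.36 in both cases) or the pre3 control siRNA library (-0.48), and that of Slc7a14 without either siTet1 library (-0.32 in both cases). An antisense RNA shares 10.8% of the words of Slc43a2.

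Counting all tested members, 4 were higher and 7 lower in every pre3 library than in every pre2-2 library, where 18.9 and 18% of all tested genes were. The 7 lower ones were those named above other than Slc7a1, with Slc38a10 (-0.20, adjusted p = 0.166) besides. The 11 uncalled members had adjusted p-values of 0.0646 to 0.959. Among them Slc38a5 stood at -0.09 (SE 0.08), Slc1a5 at 0.19 (SE 0.11), Slc38a2 at 0.20 (SE 0.09, adjusted p = 0.0943) and Slc7a11 at -0.35 (SE 0.14, adjusted p = 0.0646). Slc38a2 passed without the untransfected library of pre2-2 (0.28, adjusted p = 0.00172) or pre3 (0.29, adjusted p = 0.00162), with adjusted p-values of 0.00162 to 0.461 over the alternatives.

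By class, cationic carriers summed to 185 to 243 TPM in pre3 and 375 to 516 TPM in pre2-2, and the heavy chains to 212 to 228 TPM in pre3 and 176 to 195 TPM in pre2-2. The Slc38 carriers with other or intracellular roles summed to 76.5 to 78.9 TPM in pre3 and 82.2 to 102 TPM in pre2-2, and the class with other or unassigned substrates, Slc43a3 and Slc7a14 among them, to 12.9 to 18.9 TPM in pre3 and 26.5 to 29.1 TPM in pre2-2. In these 4 classes the lines did not overlap, which was not tested. Of the cationic sum, Slc7a3 held 80.1 to 88.8%, while Slc7a2 was higher in pre3. The heavy chain sum was nearly all Slc3a2. None of the 4 tested members of that Slc38 class was called. The remaining classes overlapped or met, such as large neutral carriers at 200 to 249 TPM in pre3 and 193 to 212 TPM in pre2-2. Between the exchangers Slc7a7 and Slc7a6, the ratio in TPM was 0.888 to 1.5 in pre3 and 0.413 to 0.917 in pre2-2.

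The cell state markers also differed by line. Of all tested genes, 14.4% were higher and 15.8% lower in pre3. Of 17 fibroblast and matrix markers tested, 15 were lower in pre3 and none higher, and their summed level was 2710 to 3260 TPM in pre3 and 4200 to 7870 TPM in pre2-2. Of 9 pluripotent cell markers tested, 3 were higher and 4 lower in pre3, with summed levels of 9900 to 11000 TPM in pre3 and 2740 to 3450 TPM in pre2-2. Pou5f1 alone gave 8680 to 9360 TPM of that sum in pre3 and 1630 to 1830 TPM in pre2-2, while Sall4, Utf1, Fgf4 and Klf2 were the markers lower in pre3. The part of these differences in the transporter differences was not tested.

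Genes of the amino acid response were counted beside the transporters. Of 26 tested, 14 were higher and 1 lower in pre3 than in pre2-2, where 14.4 and 15.8% of all tested genes were. Of the list, 22 had a positive fold change, with a median of 0.43 against 0 for all genes. Atf4 itself was at 257, 344 and 301 CPM in pre3 and 222, 228 and 268 CPM in pre2-2 (0.32, SE 0.10, adjusted p = 0.0172), and the lines overlapped. Asns, asparagine synthetase, was at 135, 156 and 214 CPM in pre3 and 104, 100 and 138 CPM in pre2-2 (0.55, SE 0.11, adjusted p = 0.000371), overlapping by 1 library of pre3. Chosen after their values were seen, the alanine-forming enzyme Gpt2 (1.56), the serine synthesis enzyme Phgdh (0.77) and Cebpb (1.25), a partner of Atf4, were higher in pre3 and Trib3 (-0.66), an inhibitor of Atf4, lower. Without the control siRNA library of pre2-2 or of pre3, 8 list genes were called higher in each case.

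**Figure D3:**
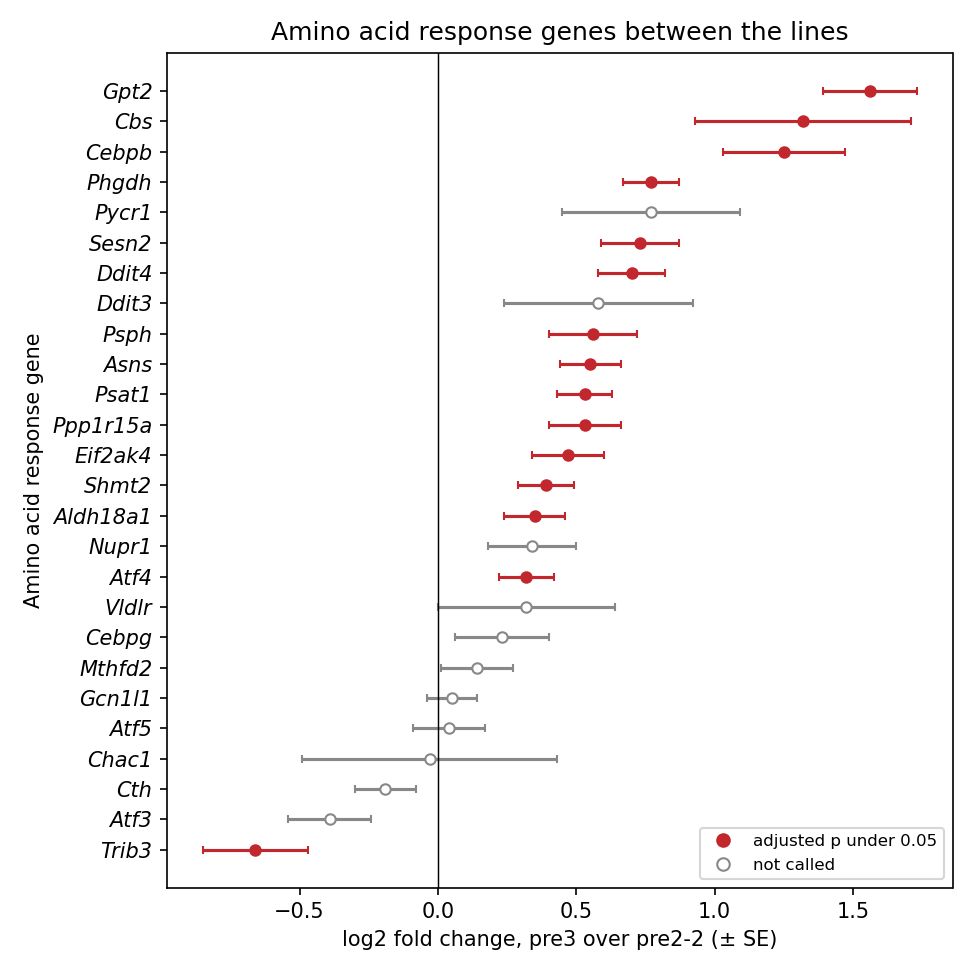
Log2 fold change of each of 26 amino acid response genes in pre3 over pre2-2 (points) with its SE (bars), filled red where the adjusted p was under 0.05 and open grey where it was not. Most points lie right of 0, with Gpt2 highest at 1.56 and Trib3 lowest at -0.66.

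The binding element of Atf4 with its C/EBP partners was searched for in the promoter windows, since the response genes and several transporters differed between the lines. The letters TGATGNAA, on either strand, stood in 3.45% of all windows and in 3 of the 42 windows of the members. These windows belong to 2 of the 17 tested members that had a window, Slc7a11 and Slc7a7. Both stretches are shown with matches in capitals, from RefSeq, GRCm38.p6, minus strand, read 5′ to 3′. The Slc7a11 stretch, chr3:50443633-50443699, holds 2 matches, 1 on each strand, which begin 66 and 47 bases before the start site. That of Slc7a7, chr14:54418058-54418105, holds 1, which begins 141 bases before the start site farthest upstream. Slc7a7 has a further match, not shown, 243 bases before another of its start sites. The stretches read:
Slc7a11: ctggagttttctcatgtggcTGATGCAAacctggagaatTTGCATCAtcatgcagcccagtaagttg
Slc7a7: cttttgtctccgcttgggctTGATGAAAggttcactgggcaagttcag

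Slc7a7 was higher in pre3 and Slc7a11 was not called. The antioxidant response element TGACNNNGC, on either strand, stood in 10.2% of all windows and in 4 of the 42 windows of the members. Of the same 17 tested members, 3 had it. Slc7a3, Slc7a5, Slc1a5, Slc7a2, Slc38a1 and Slc43a3 have no window in the table.

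Of 17 tested amino acid and peptide carriers outside these families, 1 was higher and 2 lower in pre3, where 14.4 and 15.8% of all tested genes were. Named after their values were seen, the mitochondrial ornithine carrier Slc25a15 (0.67) was higher and the peptide carrier Slc15a2 (-0.84) lower. Genes of lysosomal amino acid sensing (3 higher and 2 lower of 24), glutathione synthesis (1 higher and 2 lower of 9) and glutamine and glutamate use (1 higher and 1 lower of 14) had medians of 0.02, -0.13 and 0.09.

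Knockdown of Tet1 was compared with control siRNA to ask which transporters change when Tet1 is reduced. None of the 23 was called with edgeR, with DESeq2 or with limma, and 3 had an unadjusted p under 0.05 with edgeR (1 with DESeq2, 3 with limma). Over all genes 1.58% were called, 1.15% higher and 0.434% lower, and 10.8% had an unadjusted p under 0.05. Log2 fold changes ran from -0.36 to 0.72, with a median of -0.08 against 0 for all genes, and 15 of 23 had the same direction in both lines. None was at 2-fold, where 2.69% of all tested genes were.

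Slc38a2, a system A carrier whose mRNA is known to respond to amino acid supply, had the smallest p. It was at 404 CPM (pre3) and 328 CPM (pre2-2) with siTet1, 513 and 428 CPM with control siRNA and 438 and 425 CPM untransfected. Both siTet1 libraries lay below both control siRNA libraries. The log2 fold change was -0.36 (SE 0.11, adjusted p = 0.113), with -0.34 in pre3 and -0.38 in pre2-2. It was called when the fit held no untransfected library (-0.37, edgeR adjusted p = 0.000232). That fit called 5.65% of all genes, against 1.58% with all 6 libraries. Leaving out only the untransfected library of pre2-2 or pre3 gave -0.36 in each case. Both are nearly the same test for Slc38a2, since a lone untransfected library adds nothing to this difference beyond the filter, scaling and shared spread. Over all its alternatives the adjusted p ran from 0.000227 to 1.

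The other members with an unadjusted p under 0.05 were Slc7a1 (-0.31, SE 0.14, adjusted p = 0.434) and Slc7a7 (0.52, SE 0.20, adjusted p = 0.282). Slc7a7 stood at 67.3 CPM (pre3) and 50.8 CPM (pre2-2) with siTet1, 60 and 25.7 CPM with control siRNA and 49 and 23.2 CPM untransfected. The difference was 0.16 in pre3 and 0.98 in pre2-2, and without the pre3 siTet1 library it was called (0.93, adjusted p = 0.0443; 0.0443 to 1 over its alternatives). It stood at 0.81 without the pre3 control siRNA library, at 0.31 without that of pre2-2 and at 0.20 without the pre2-2 siTet1 library. Slc7a1 stood at -0.10 without the pre3 control siRNA library and at -0.54 without that of pre2-2. Slc38a5 stood at 0.14 (SE 0.09, adjusted p = 0.656), Slc7a3 at -0.18, Slc7a5 at -0.10, Slc3a2 at 0.06 and Slc7a11 at 0.27. Of the 23, 2 lay higher and 3 lower in both siTet1 libraries than in both control siRNA libraries, where 12.6 and 12.9% of all tested genes did.

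**Figure D4:**
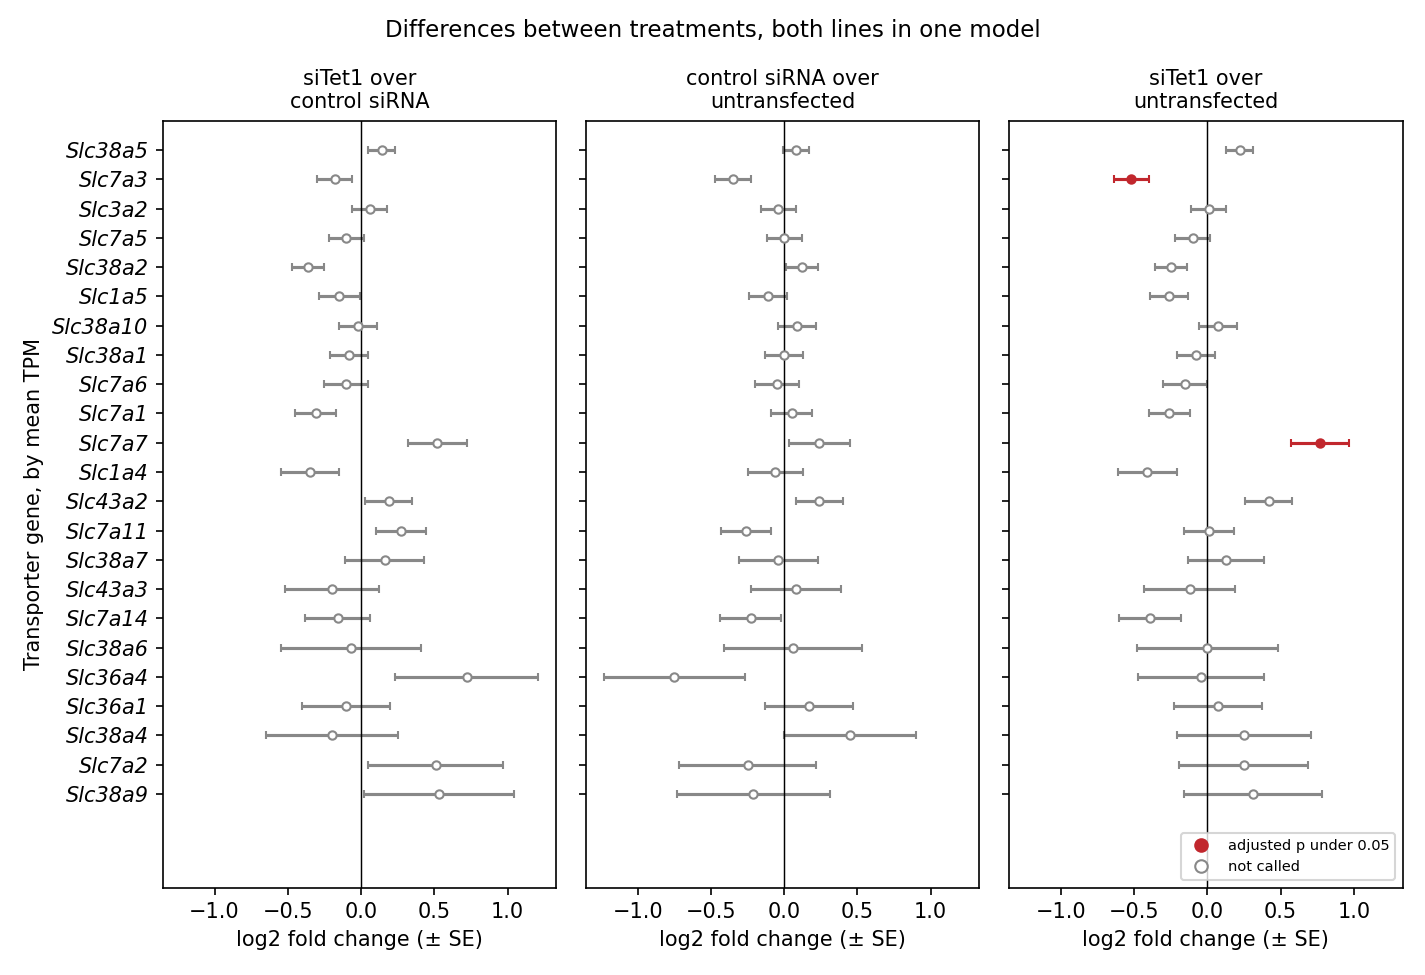
Log2 fold change of each tested transporter (rows, ordered by mean TPM) between treatments, with its SE as bars, for siTet1 over control siRNA (left), control siRNA over untransfected (middle) and siTet1 over untransfected (right). The only filled points, with an adjusted p under 0.05, are Slc7a3 (-0.52) and Slc7a7 (0.77) on the right.

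Transfection with control siRNA was compared with untransfected cells as a background of the procedure. No transporter was called with edgeR, DESeq2 or limma, and 1 had an unadjusted p under 0.05 with each, against 1.48% of all genes called, 1.38% higher and 0.0996% lower, and 9.21% at an unadjusted p under 0.05 with edgeR. Of 19 interferon response genes tested, 17 rose, among them Irf7 by 5.05 on the log2 scale (SE 0.42, edgeR adjusted p = 7.61e-09). Between siTet1 and control siRNA 14 were lower and none higher, where 0.434% of all genes were lower. The part of the interferon response in the transporter values was not tested. The member with the smallest p was Slc7a3 (-0.35, SE 0.12, adjusted p = 0.249), at 228 CPM (pre3) and 365 CPM (pre2-2) with control siRNA and 249 and 533 CPM untransfected. It stood at -0.47 without the pre3 untransfected library and at -0.23 without that of pre2-2. Its value was -0.54 without the pre3 control siRNA library and -0.13 without that of pre2-2. The members' fold changes ran from -0.75 to 0.45, with a median of 0, equal to that of all genes.

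Between siTet1 and untransfected cells, which differ by the siRNA target and by transfection together, 2 transporters were called, 8.7% of those tested, against 6.55% of all genes. Slc7a7 was higher, where 4.92% of all genes were, and Slc7a3 lower, where 1.63% were. This comparison shares libraries with the 2 before it. Slc7a3 was at 174 CPM (pre3) and 368 CPM (pre2-2) with siTet1 and 249 and 533 CPM untransfected, 0.696-fold (log2 fold change -0.52, SE 0.12, adjusted p = 0.00869). The treatments overlapped across the lines, and the difference within a line was -0.51 in pre3 and -0.53 in pre2-2. Slc7a7, with the CPM given above, was 1.7-fold (0.77, SE 0.20, adjusted p = 0.0204), and both siTet1 libraries lay above both untransfected libraries. Its difference was 0.45 in pre3 and 1.13 in pre2-2.

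**Figure D5:**
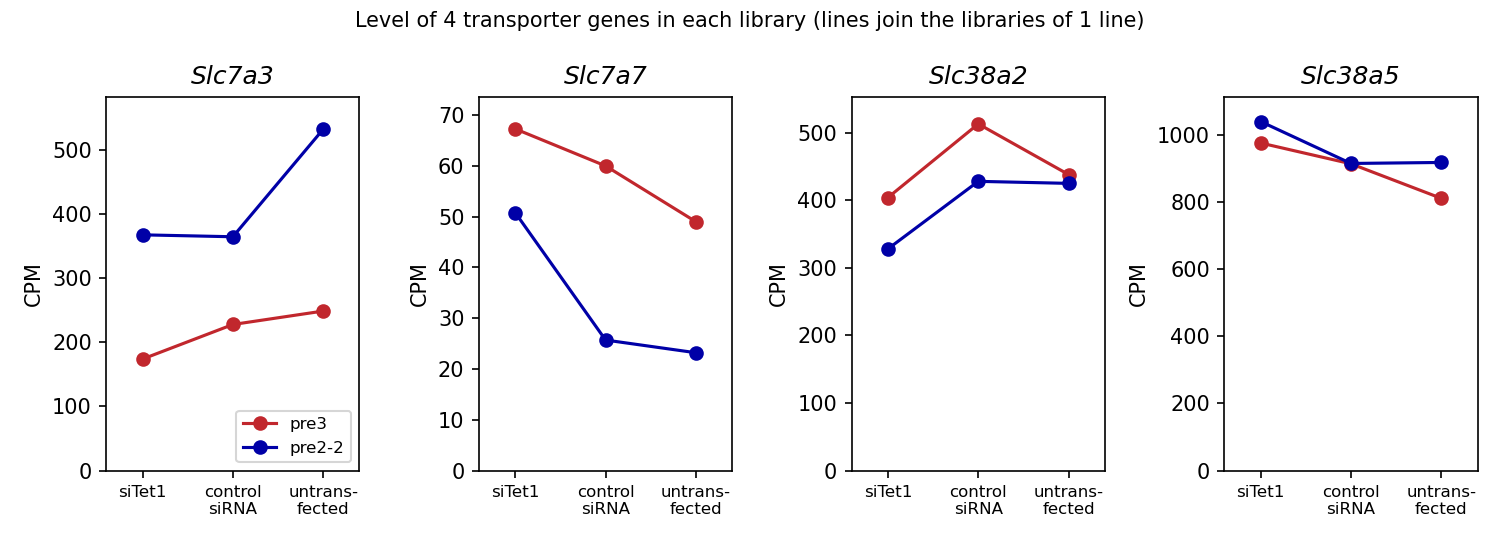
Level in CPM of Slc7a3, Slc7a7, Slc38a2 and Slc38a5 in each library, by treatment, with red for pre3 and blue for pre2-2 and a line joining the 3 libraries of a cell line. Slc7a3 lies lower with siTet1 than untransfected in both lines, at 174 against 249 CPM in pre3 and 368 against 533 CPM in pre2-2.

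Both calls rested on few libraries. Slc7a3 had an adjusted p of 0.0706 (-0.62) when siTet1 of pre2-2 was left out, of 0.133 (-0.45) for siTet1 of pre3 and of 0.0585 (-0.38) for untransfected pre2-2. Slc7a7 had an adjusted p of 0.688 (0.43) when siTet1 of pre2-2 was left out and of 0.103 (0.62) for untransfected pre2-2, and its value was 1.16 with siTet1 of pre3 left out. Both calls also ended with DESeq2 (adjusted p = 0.151 for Slc7a3 and 0.404 for Slc7a7) and held with limma. Fibroblast and matrix markers were higher with siTet1 than in untransfected cells for 13 of 17 and none was lower, against 4.92% higher over all genes. Their summed levels were 3260 TPM (pre3) and 7870 TPM (pre2-2) with siTet1 and 2710 and 4200 TPM untransfected. The part of these markers in the Slc7a3 and Slc7a7 calls was not tested.

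Other members with an unadjusted p under 0.05 were Slc43a2 (0.42, SE 0.16), Slc38a5 (0.22, SE 0.09), Slc38a2 (-0.25, SE 0.11) and Slc1a4 (-0.41, SE 0.20), with adjusted p-values of 0.115, 0.181, 0.205 and 0.25. Slc38a5 was called without the pre2-2 untransfected library (0.29, adjusted p = 0.0403) and stood at 0.14 without that of pre3 (adjusted p = 0.275). Slc38a2 was called without the pre3 untransfected library (-0.38, adjusted p = 0.00263) and stood at -0.12 without that of pre2-2 (adjusted p = 0.672). Both siTet1 libraries of Slc38a5, at 976 CPM (pre3) and 1040 CPM (pre2-2), lay above both untransfected libraries at 811 and 918 CPM. Without the pre3 untransfected library 5 members were called, with Slc38a2, Slc7a1 and Slc7a5 lower besides Slc7a3, and 16.6% of all genes were called in that fit.

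Amino acid response genes had a median of -0.17 between siTet1 and untransfected cells, against 0.01 for all genes. Of 26, 5 were lower and none higher, where 1.63 and 4.92% of all genes were. DESeq2 called 2 of the list lower, and edgeR with no replicate block 0. Asns was at 135 CPM (pre3) and 104 CPM (pre2-2) with siTet1, 156 and 100 CPM with control siRNA and 214 and 138 CPM untransfected. Its log2 fold change was -0.08 between siTet1 and control siRNA (SE 0.14, edgeR adjusted p = 0.903). Between control siRNA and untransfected cells it was -0.46 (SE 0.13, edgeR adjusted p = 0.0969). Between siTet1 and untransfected cells Asns was called lower (-0.54, SE 0.13, edgeR adjusted p = 0.0131). The other genes called lower were Psat1, Phgdh, Shmt2 and Mthfd2, enzymes of serine synthesis and of folate-linked serine use, the last 3 named after their values were seen. Psat1 was at 215 CPM (pre3) and 144 CPM (pre2-2) with siTet1, 348 and 224 CPM with control siRNA and 395 and 302 CPM untransfected. It was the 1 list gene called between siTet1 and control siRNA (-0.67, SE 0.12, adjusted p = 0.00257), and Atf4 was at -0.24 there (SE 0.13, adjusted p = 0.513). With siTet1 of pre2-2 left out, 1 list gene was called lower between siTet1 and untransfected cells, and 3 in each case with siTet1 of pre3 or untransfected pre2-2 left out.

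In the lists of other amino acid carriers, lysosomal sensing, glutathione synthesis and glutamine use, edgeR called no gene between siTet1 and control siRNA or between control siRNA and untransfected cells. Between siTet1 and untransfected cells 1 of 17 other carriers and 1 of 9 glutathione synthesis genes were higher, where 4.92% of all genes were. No gene of these lists was lower, and none of 24 lysosomal sensing or 14 glutamine use genes was called. The genes called were the creatine carrier Slc6a8 (0.55, SE 0.17, edgeR adjusted p = 0.0427) and the peptidase Anpep (1.1, SE 0.31, edgeR adjusted p = 0.0292). Both were named after their values were seen.

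Whether treatment differences depended on the line was tested by interaction terms. With siTet1 against both other libraries of each line, no transporter was called with edgeR, DESeq2 or limma, and the member with an unadjusted p under 0.05 with edgeR was Slc7a7, at -0.75 in pre3 relative to pre2-2 (SE 0.32, edgeR adjusted p = 1). That model called 0% of all genes. With both transfected libraries of a line against its untransfected one, no transporter was called with any of the 3 tools and none had an unadjusted p under 0.05 with edgeR, while 0.00905% of all genes were called. These models treat pooled libraries of a line as replicates.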

How the data were processed

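Expected counts and fractions per gene symbol were deposited for each of 6 libraries; the authors made them with RSEM 1.1.21 on mm9, per the submitters' processing notes, from TruSeq RNA libraries, per the labels. Expected counts are not normalized, and 18.7 to 21.4% per library were not whole (tolerance 0.005). The deposited fraction sums to 1 per library and was multiplied to TPM. Read length, aligner and strand setting are not given in the sources used here. After rounding, edgeR 4.0.16 (R 4.3.3) was run with TMM factors (0.983 to 1.01), filterByExpr by treatment (minimum count 10, 11048 genes kept), the quasi-likelihood test, two-sided, and Benjamini-Hochberg adjustment over all genes tested. CPM are per TMM-scaled library. The model held line and treatment over all 6 libraries, with 2 residual degrees of freedom. The spread of each gene was moderated by that of the other genes tested, with a median of 23.2 prior degrees of freedom. The edgeR p-values thus rest largely on spread shared over genes. SE is the size of the fold change divided by root F. An exact permutation test cannot go below 0.333 with 2 against 2 libraries or 0.1 with 3 against 3. The line is the replicate block, since libraries with the same number come from the same line; deviations from treatment means correlated at 0.661 to 0.762 within a line. The fit was tested on simulated data. DESeq2 1.42.0 and limma 3.58.1 (voom) were alternatives, with other normalizations, no filter and each library left out. Shared reads were judged by 50-base words of GENCODE M21 transcripts. Of 179 entries in the other gene lists, 171 were in the files. Members called in any comparison and the highest member of each class are given in every library. Members and lists were chosen with earlier results of these data known. A deposited series-wide TPM table was not used. A gene of these lists is not reported here.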

Additional observations from a re-analysis of the deposited data

How the results depend on the processing

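Between pre3 and pre2-2, 12 transporters were called, 4 with DESeq2 (Slc1a4, Slc38a4, Slc7a3 and Slc7a7, where 12.9% of all genes were called), 7 with no replicate block, that is without treatment in the model, and 7 to 12 with 1 library left out. Between siTet1 and untransfected cells 2 were called, 0 with DESeq2, 0 with no replicate block (0% of all genes), and 0 to 5 with 1 library left out. Between siTet1 and control siRNA 0 were called, 1 with the replicate block and only the 4 libraries compared (Slc38a2), and 0 to 1 with 1 library left out. Between control siRNA and untransfected cells 0 were called, and 0 to 1 with 1 library left out. Where a library left out leaves a treatment with 1, that one is assumed to vary like the others in comparisons of that treatment. It adds nothing to the difference between the lines or between the other treatments. Leaving out either library of a treatment is nearly the same test there, apart from the filter, the scaling and the spread shared over genes. Other normalizations, no filter and limma kept each count within 1.5 times; the cause of these changes was not tested. Of the 14 calls of a gene in a comparison, 3 held under every alternative run: Slc1a4 (0.80 to 0.94), Slc38a4 (-2.90 to -2.57) and Slc7a3 (-1.09 to -0.87), all between the lines, and none of the 14 changed sign. Other normalizations moved libraries by at most 0.0399 on the log2 scale. With DESeq2, 8 amino acid response genes were higher in pre3, against 14, and 9 with no replicate block; these alternatives were chosen after seeing the data. Members under 10 TPM, 6 of the 23 tested, rest on few counts.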
